A study of Mus musculus with 22 samples.

Results

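The 10 genes described here carry fatty acid from the blood into fat cells and build triglyceride from it. They were taken by symbol from the deposited table of mouse mammary tissue, 10 of the 52526 gene symbols listed there. Lpl, Gpihbp1, Cd36, Slc27a1, Fabp4 and Fabp5 serve the release, uptake and binding of fatty acid. Acsl1, Dgat1 and Dgat2 serve its activation and its assembly into triglyceride, and Pparg is the nuclear receptor that directs the fat cell programme.

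As background, triglyceride in circulating lipoproteins is too large to enter a cell, so lipoprotein lipase on the capillary wall first splits it into fatty acids. These cross the endothelium and the fat cell membrane, are bound to small cytosolic proteins and are joined to coenzyme A. Acyl-CoA is then added stepwise to a glycerol backbone, and the last step is catalysed by either of a pair of unrelated enzymes, DGAT1 and DGAT2. The mammary fat pad of a mouse that has not been pregnant is largely white fat, and in white fat many of these genes are direct targets of PPARγ.

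RNA was measured in the left mammary fat pad number 4 of 22 female C57BL/6J mice, 7 to 8 weeks old, in a factorial design of activity by liposome. Wheel mice had a running wheel with its hub in the cage for 2 weeks and Control mice had the hub without a wheel. All mice were then engrafted in that fat pad with 100000 EO771 cells, a mammary cancer line derived from the same mouse strain and made to express firefly luciferase, and tissue was taken 24 h later. Clodronate liposomes, which deplete phagocytic cells, or PBS liposomes as their control were given intravenously 24 h before engraftment and again at engraftment. The groups were Control+PBS with 6 mice, Wheel+PBS with 6 mice, Control+Clodronate with 5 mice and Wheel+Clodronate with 5 mice. All 4 groups therefore carried tumour cells and received liposomes, no group had an untouched fat pad, and running distance was not among the data used here. The labels give the same catalogue number for both kinds of liposome, so the treatment was taken from the treatment label.

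Values are in CPM, reads scaled to the total reads of the mouse, from libraries that read the 3′ end of each transcript about once whatever its length, so CPM can be set side by side between genes. Depth was 13256467 to 20484578 reads a mouse. Values under 1 CPM had been raised to 1, a floor that hides at most 13 to 20 reads, and none of the 10 genes came near it, with a minimum of 403 reads (Gpihbp1). Each of the 12 adipocyte markers was above the floor in at least 1 mouse of every group. Their summed level was 6713 to 23653 CPM a mouse, whereas 5 mice (Control+PBS 2, Wheel+PBS 3 and Wheel+Clodronate 3, 4 and 5) held 279 to 824 CPM of 12 lymphocyte markers against at most 16.9 CPM in the other mice. The sum of 10 skeletal muscle markers was 27518 CPM in Control+Clodronate 2 and 12100 CPM in Wheel+Clodronate 2, and at most 3381 CPM elsewhere. The 10 macrophage markers, which the liposomes were meant to lower, had overlapping sums in all 4 groups, with medians of 454 and 427 CPM in Control+PBS and Wheel+PBS and of 338 and 568 CPM in Control+Clodronate and Wheel+Clodronate, and 10 of 10 had a lower averaged value after clodronate (median -0.25) without any that passed.

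The levels of the 10 genes spanned a wide range, with a high and a low tier. Fabp4, the fatty acid binding protein of the fat cell cytosol, was the highest with a median of 4943 CPM over the 22 mice and ranked number 10 among all genes. Lpl followed with 4450 CPM, then Acsl1 with 1148 CPM, Dgat2 with 710 CPM and Cd36 with 495 CPM. Dgat1 (141 CPM), Slc27a1 (112 CPM), Fabp5 (93.5 CPM), Pparg (70.1 CPM) and Gpihbp1 (56.0 CPM) made up a lower tier. Lpl exceeded Acsl1, and Cd36 exceeded Dgat1, in 22 of 22 mice. Neighbours whose ranges crossed more often were Fabp5 over Pparg (13 of 22 mice), Dgat2 over Cd36 (15), Slc27a1 over Fabp5 (15), Fabp4 over Lpl (16) and Pparg over Gpihbp1 (16). Apart from Dgat2 and Cd36, these neighbours cannot be ordered beyond the spread between mice. Dgat2 had a median of 767 CPM over the 12 PBS mice, against 550 CPM for Cd36. Over the 10 clodronate mice the medians were 386 and 397 CPM. Dgat2 was thus above Cd36 with PBS and close to it with clodronate. Lpl and Fabp4 together made up 69.5 to 82.5% of the summed CPM of the 10 genes in each mouse.

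**Figure D1:**
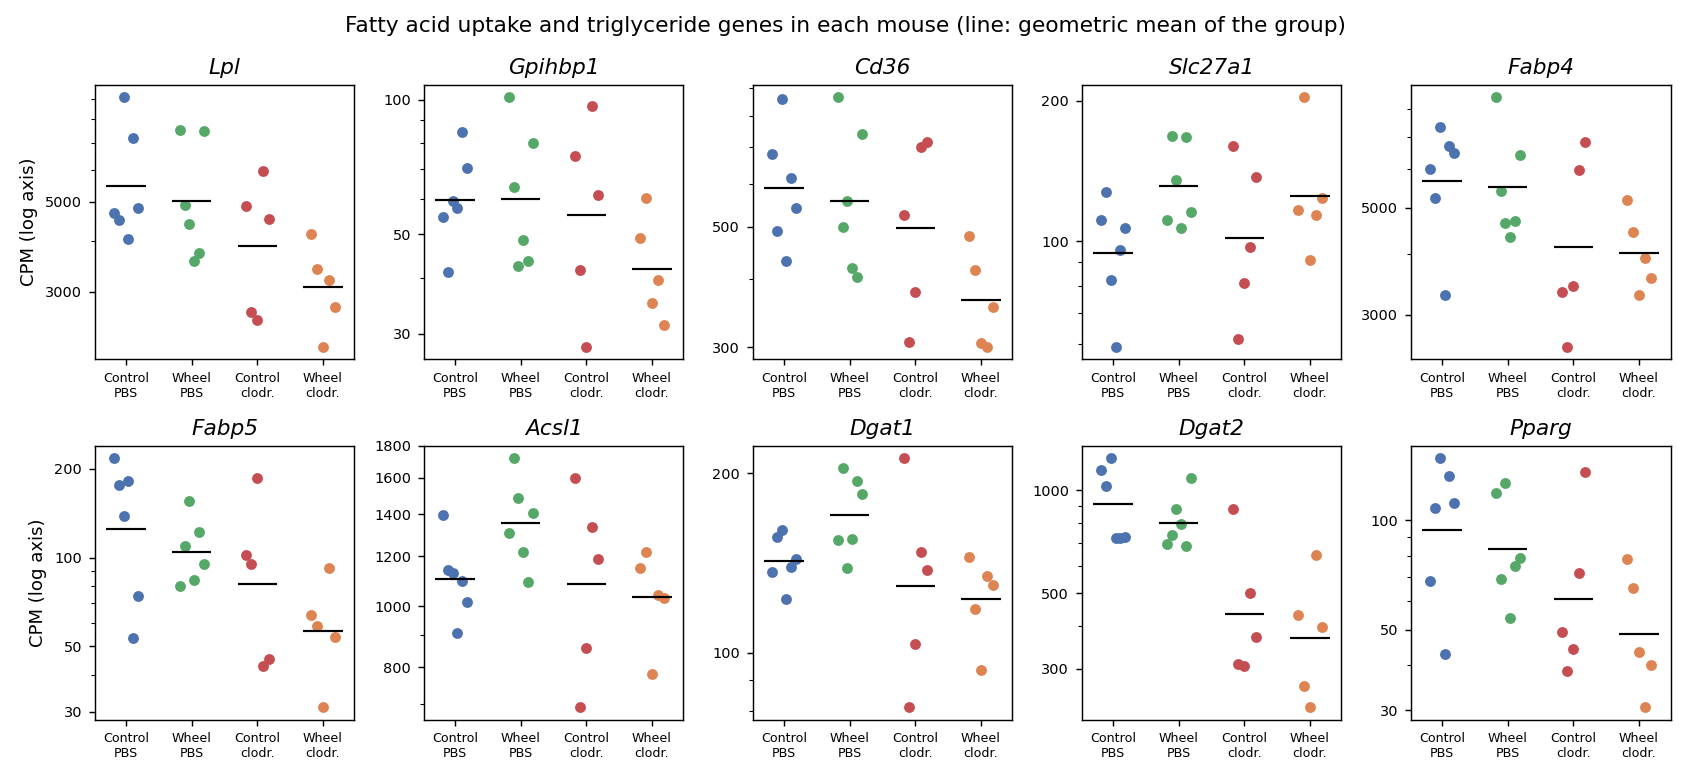
CPM of each of the 10 genes on a log axis, 1 point per mouse, in Control+PBS and Wheel+PBS (6 mice each) and Control+Clodronate and Wheel+Clodronate (5 mice each, "clodr."), with a line at the geometric mean of each group. In Dgat2, 9 of the 10 clodronate mice lie under the lowest PBS mouse at 688.5 CPM, and replicate 1 of Control+Clodronate at 883.8 CPM lies inside the PBS range.

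Clodronate was compared with PBS liposomes in Control mice, in Wheel mice, and averaged over both. The average is the comparison that uses all 22 mice, and it shares its mice with the other 2. Each value below is a difference on the log2(CPM + 1) scale from 1 limma fit of 4 group means over the 15138 genes that exceeded the floor in 5 or more mice, with adjusted p-values over all of these genes. Dgat2 was lower after clodronate and was the 1 gene of the 10 that passed an adjusted p of 0.05 in any comparison. Averaged over activity 31 of 15138 genes passed (0.205% of those tested), all of them lower, and Dgat2 had the sixth smallest p.

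Dgat2 encodes the diacylglycerol acyltransferase that esterifies newly made fatty acids in the endoplasmic reticulum and at the lipid droplet (ENSMUSG00000030747.5, GRCm38 chromosome 7, 99153658 to 99182719, minus strand). In Control+PBS it was 722.9 to 1242 CPM with a median of 881 CPM, and in Wheel+PBS it was 688.5 to 1086 CPM with a median of 767 CPM. The 5 Control+Clodronate mice had 883.8, 310.8, 305.9, 498.8 and 373.0 CPM, and the 5 Wheel+Clodronate mice had 431.3, 266.7, 231.5, 644.9 and 398.3 CPM. Replicate 1 of Control+Clodronate was thus the single clodronate mouse inside the PBS range, and the 2 Wheel groups did not overlap, which held for 1.26% of all genes tested in that comparison.

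The group means of Dgat2 were 934 ± 237 CPM (SD, n = 6) in Control+PBS, 814 ± 151 CPM (n = 6) in Wheel+PBS, 474 ± 242 CPM (n = 5) in Control+Clodronate and 395 ± 164 CPM (n = 5) in Wheel+Clodronate. The change averaged over activity was -1.09 on the log2 scale (SE 0.19, 0.470-fold, limma, adjusted p = 0.0144). It was -1.06 (SE 0.27) in Control mice and -1.12 (SE 0.27) in Wheel mice, and neither passed on its own (limma, adjusted p = 0.341 and 0.151), in comparisons where 0% (limma, 1058 at an unadjusted p under 0.05) and 0.00661% of genes passed (1 gene, Gm7536, named after its values were seen). The difference between these 2 changes was -0.06 (95% interval -0.84 to 0.72, limma, adjusted p = 0.995).

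The size of the Dgat2 change held under leaving out mice, but its call did not always. Leaving out each mouse in turn gave -1.22 to -1.01, with an adjusted p of at most 0.0460 from limma. Without the 5 mice high in lymphocyte markers it was -1.12 (limma, adjusted p = 0.0885), without the 2 mice high in skeletal muscle markers it was -0.97 (limma, adjusted p = 0.0871), and with the adipocyte marker level as a covariate it was -0.86 (limma, adjusted p = 0.140). In each of these 3 fits 0 of all genes passed, and the part of these markers in the Dgat2 result was not tested further. In bulk tissue, fewer fat cells and less RNA per fat cell cannot be told apart.

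Dgat1, the other diacylglycerol acyltransferase, prefers fatty acids taken up or released from stores and lies at chromosome 15, 76502015 to 76511953, minus strand. It was 123 to 161 CPM in Control+PBS and 139 to 204 CPM in Wheel+PBS. The Control+Clodronate mice had 212, 81.0, 103, 148 and 138 CPM, and the Wheel+Clodronate mice had 145, 118, 93.6, 135 and 130 CPM, so the groups overlapped and replicate 1 of Control+Clodronate was the highest of all 22 mice. The averaged change was -0.30 (SE 0.13, limma, adjusted p = 0.382).

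Since the enzymes catalyse the same step, their ratio was taken in each mouse. It was chosen after the values were seen, so it is a description with no test, and it does not depend on how the libraries were scaled. Dgat2 CPM divided by Dgat1 CPM was 6.49 ± 1.36 (SD, n = 6) in Control+PBS, 4.83 ± 1.15 (n = 6) in Wheel+PBS, 3.41 ± 0.60 (n = 5) in Control+Clodronate and 3.11 ± 1.00 (n = 5) in Wheel+Clodronate. The lowest Control+PBS mouse was at 5.09 and the highest Control+Clodronate mouse at 4.17, while the Wheel groups overlapped through replicate 4 of Wheel+Clodronate at 4.79. The difference in the log2 ratio, clodronate minus PBS, was -0.79 averaged over activity. It was -0.84 without the 5 mice high in lymphocyte markers and -0.76 without the 2 high in skeletal muscle markers.

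**Figure D2:**
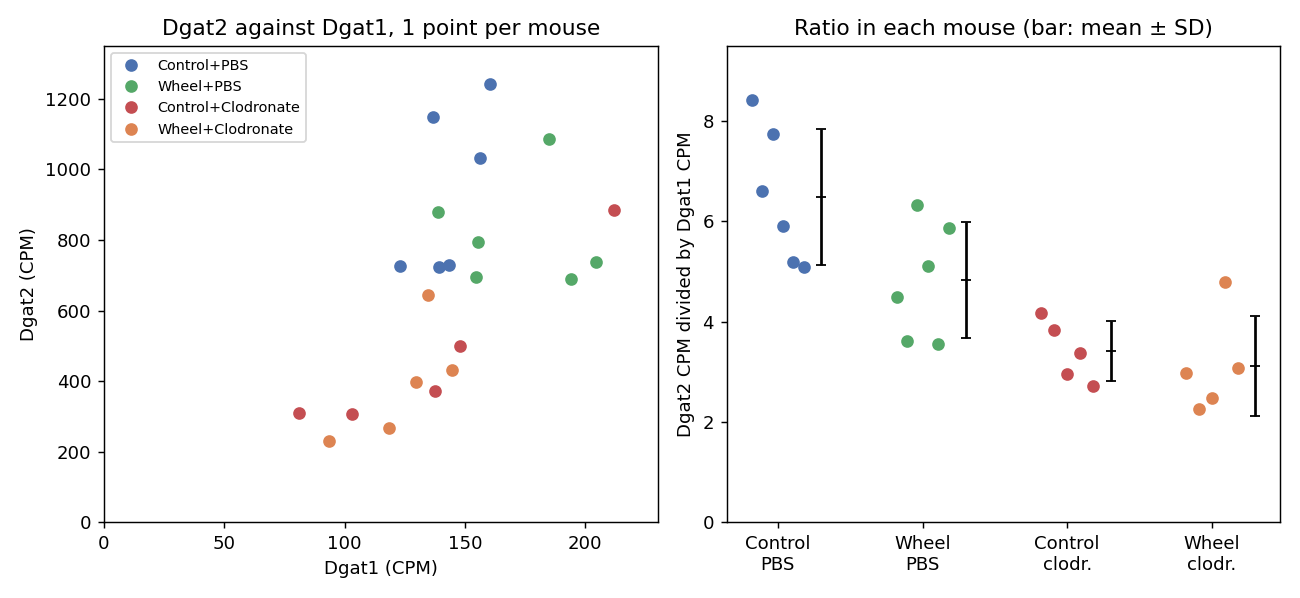
Left, Dgat2 against Dgat1 in CPM, 1 point per mouse, coloured by group. Right, Dgat2 CPM divided by Dgat1 CPM in each mouse of the 4 groups, with mean ± SD beside the points; the group means run from 6.49 in Control+PBS to 3.11 in Wheel+Clodronate.

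Acsl1, the main long-chain acyl-CoA synthetase of fat cells (chromosome 8, 46471037 to 46536051, plus strand), varied least of the 10 genes, with a highest-to-lowest ratio of 2.49 over the 22 mice. It averaged 1114 ± 163 CPM (SD, n = 6) in Control+PBS, 1372 ± 220 CPM (n = 6) in Wheel+PBS, 1135 ± 365 CPM (n = 5) in Control+Clodronate and 1045 ± 167 CPM (n = 5) in Wheel+Clodronate. The averaged change after clodronate was -0.21 (95% interval -0.50 to 0.08, limma, adjusted p = 0.629). In the annotation a single gene overlaps Acsl1, the gene model Gm45244 on the opposite strand, which was at the floor in the median mouse.

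The 6 genes that follow release, carry and bind fatty acid at the vessel, at the cell surface and in the cytosol. Lpl encodes lipoprotein lipase (chromosome 8, 68880491 to 68907448, plus strand). It was 4042 to 9057 CPM in Control+PBS and 3569 to 7504 CPM in Wheel+PBS, and the clodronate mice had 4878, 2679, 2553, 5972 and 4532 CPM in the Control group and 4155, 3412, 2197, 3202 and 2753 CPM in the Wheel group. All groups overlapped, and 4 of 5 Wheel+Clodronate mice lay under the lowest Wheel+PBS mouse. The averaged change was -0.60 (SE 0.22, 95% interval -1.05 to -0.14, limma, adjusted p = 0.306).

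Gpihbp1 encodes the protein that holds lipoprotein lipase on the capillary wall and is made by endothelial cells (chromosome 15, 75596628 to 75599481, plus strand). It was 61.3 ± 14.7 CPM (SD, n = 6) in Control+PBS, 63.3 ± 23.5 CPM (n = 6) in Wheel+PBS, 60.5 ± 27.0 CPM (n = 5) in Control+Clodronate and 43.2 ± 11.7 CPM (n = 5) in Wheel+Clodronate, with an averaged change of -0.31 (limma, adjusted p = 0.605). The 10 capillary endothelium markers had summed medians of 337 to 399 CPM in the 4 groups. Averaged over activity, 7 of 10 were lower after clodronate, beside 57.4% of all genes, and none passed the test.

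Cd36 encodes the fatty acid translocase of the plasma membrane (chromosome 5, 17781690 to 17888801, minus strand). It was 603 ± 153 CPM (SD, n = 6) in Control+PBS, 581 ± 185 CPM (n = 6) in Wheel+PBS, 525 ± 185 CPM (n = 5) in Control+Clodronate and 372 ± 76.7 CPM (n = 5) in Wheel+Clodronate, and the averaged change was -0.42 (SE 0.17, limma, adjusted p = 0.353). Cd36 is among the textbook targets of PPARγ, which binds as a dimer with RXR to a pair of AGGTCA half-sites spaced by 1 base. Of the 10 genes, 4 (Cd36, Slc27a1, Acsl1 and Pparg) had a start in the RefSeq promoter table of GRCm38.p6, with 9 starts in all. That motif (AGGTCA, any base, AGGTCA), searched on both strands with up to 2 mismatches in its 12 fixed bases over the 250 bases before each start, was matched at 1 of the 9 starts, a start of Cd36, and 3.24% of the 32851 promoters in the table held it. The window is shown because it carries that match, in capitals, on the opposite strand and with 2 mismatches, 63 to 51 bases before the start (chr5:17835897-17836146, minus strand).
Cd36, 250 bases before the start: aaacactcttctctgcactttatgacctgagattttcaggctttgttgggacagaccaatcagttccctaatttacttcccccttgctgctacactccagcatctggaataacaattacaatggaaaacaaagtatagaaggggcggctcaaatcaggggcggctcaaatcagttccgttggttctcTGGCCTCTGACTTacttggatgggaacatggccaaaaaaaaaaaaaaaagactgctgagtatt
A match in letters describes the window and does not show that the site is bound. The half-site AGGTCA by itself was present in 3 of the 9 windows and in 14.02% of all promoters. Its matches can overlap the longer motif, but in the Cd36 window it lies outside the capitals. The reads cover the 3′ end, so the starts of Cd36 or of Pparg in use cannot be told apart here.

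Slc27a1 encodes FATP1, a fatty acid transporter with acyl-CoA synthetase activity that is also made in skeletal muscle (chromosome 8, 71568882 to 71587302, plus strand). It was 59.4 to 127 CPM in Control+PBS and 107 to 168 CPM in Wheel+PBS, and the clodronate mice had 160, 61.6, 81.4, 96.96 and 138 CPM in the Control group and 117, 203, 91.1, 114 and 123 CPM in the Wheel group. The groups overlapped, and the highest value of all, 203 CPM, was in replicate 2 of Wheel+Clodronate, a mouse high in skeletal muscle markers. Its change after clodronate was 0.01 (95% interval -0.33 to 0.36), the smallest of the 10. The last 400 bases of its transcript hold a stretch that is at least 90% identical to stretches in 766 other genes, so its reads are the ones of the 10 genes most open to shared mapping, and no other gene reached 97% identity with the 3′ end of any of the 10.

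Fabp4 (chromosome 3, 10204088 to 10208576, minus strand) was 5850 ± 1438 CPM (SD, n = 6) in Control+PBS, 5663 ± 1558 CPM (n = 6) in Wheel+PBS, 4433 ± 1856 CPM (n = 5) in Control+Clodronate and 4088 ± 757 CPM (n = 5) in Wheel+Clodronate. The averaged change was -0.45 (SE 0.21, limma, adjusted p = 0.469). Fabp5, its neighbour on chromosome 3 at 10012548 to 10016607 on the plus strand, encodes the epidermal fatty acid binding protein, which fat cells, macrophages and epithelium also make. It was the most variable of the 10 genes, with a highest-to-lowest ratio of 6.98 over the mice. It was 53.6 to 217 CPM in Control+PBS and 79.8 to 155 CPM in Wheel+PBS, and the clodronate mice had 102, 94.9, 186, 42.9 and 45.5 CPM in the Control group and 63.8, 58.8, 31.1, 92.1 and 53.9 CPM in the Wheel group. The averaged change of -0.75 (SE 0.26, 95% interval -1.28 to -0.21) did not pass (limma, adjusted p = 0.262).

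Pparg (chromosome 6, 115360951 to 115490399, plus strand) was 42.9 to 148 CPM in Control+PBS and 54.0 to 127 CPM in Wheel+PBS. The clodronate mice had 49.3, 38.5, 44.4, 71.4 and 136 CPM in the Control group and 78.2, 65.3, 43.3, 30.6 and 39.8 CPM in the Wheel group, so all groups overlapped. Its averaged change was -0.70 (SE 0.23, 95% interval -1.18 to -0.21, limma, adjusted p = 0.249).

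Counted together, 9 of the 10 genes had a lower value after clodronate averaged over activity, with a median change of -0.44, beside 57.4% of all genes and a median of -0.04 over all genes. An unadjusted limma p under 0.05 was found for 7 of the 10, all lower (Dgat2, Pparg, Fabp5, Lpl, Cd36, Dgat1 and Fabp4), where 8.3% of all genes tested were lower at that threshold. Within Control mice 1 of the 10 (Dgat2) was lower at that threshold, beside 921 of 15138 genes. Within Wheel mice it was 6 of the 10, beside 838 genes. The averaged count of 7 fell to 5 without the 2 mice high in skeletal muscle markers or with upper-quartile scaling, to 2 with the adipocyte marker level as a covariate and to 1 without the 5 mice high in lymphocyte markers. With the covariate 7 of the 10 were lower, with a median of -0.11 beside -0.05 over all genes. Without the lymphocyte-high mice 9 of the 10 were lower, with a median of -0.32 beside -0.09 over all genes. That last fit has only 2 Wheel+Clodronate mice, so its count also reflects fewer mice. The adipocyte markers moved the same way: 12 of 12 had lower values (median -0.31), from -0.05 to -1.19 (Thrsp), and none passed the test. Averaged over activity, all 12 lymphocyte markers (median 0.77) and all 10 skeletal muscle markers (median 1.52) had higher values after clodronate. None of them passed the test. Within Control mice 11 of 12 lymphocyte markers were lower (median -0.52), and within Wheel mice 12 of 12 were higher (median 2.00). The skeletal muscle markers were 10 of 10 higher in both (medians 1.14 and 1.87). The part of both marker sets in the changes of the 10 genes was not tested beyond the refits above. Wheel+Clodronate also had the lowest share of reads assigned to genes, 57.4 to 58.6% against 58.5 to 64.6% in the other groups, and scaling to assigned reads left 5 of 10 at an unadjusted p under 0.05.

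**Figure D3:**
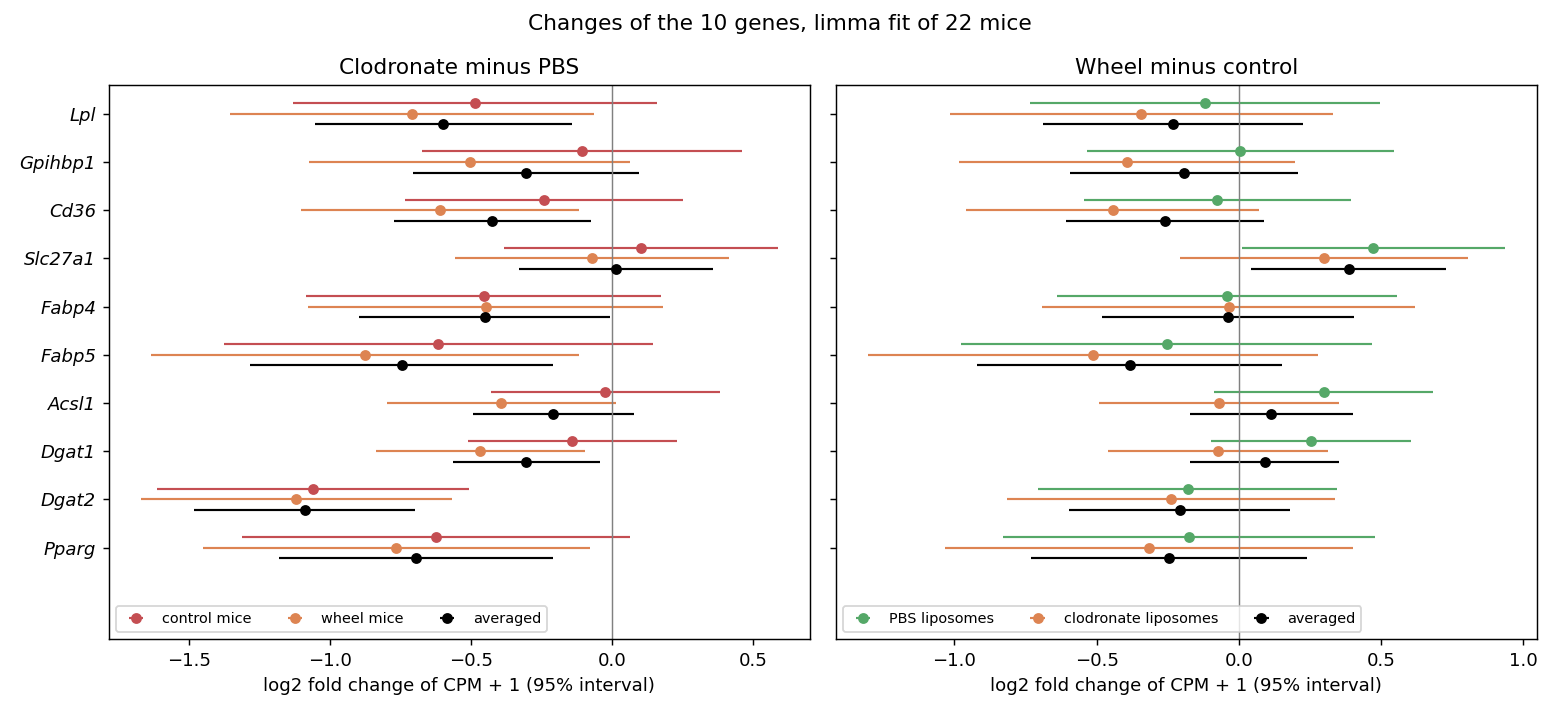
Log2 change of each of the 10 genes with its 95% interval from limma, for clodronate minus PBS liposomes (left) and wheel minus control (right), within each level of the other factor and averaged. On the left the averaged Dgat2 interval runs from -1.48 to -0.70, and on the right 9 of the 10 averaged intervals include 0.

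Wheel was compared with Control under each liposome and averaged, and none of the 10 genes passed in any of these comparisons. With PBS liposomes 0 of all genes passed (0% of those tested, limma, with 744 at an unadjusted p under 0.05), and with clodronate liposomes 1 gene passed (0.00661%), Gm7536, which was not one of the 10. Averaged over liposome 0 genes passed (0%, with 1224 at an unadjusted p under 0.05).

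Slc27a1 was the gene of the 10 whose averaged interval excluded 0 with all mice in the fit. It was 97.2 ± 23.8 CPM (SD, n = 6) in Control+PBS and 134 ± 27.8 CPM (n = 6) in Wheel+PBS, and 108 ± 40.5 CPM (n = 5) in Control+Clodronate and 130 ± 43.0 CPM (n = 5) in Wheel+Clodronate. The wheel-minus-control difference was 0.47 with PBS (95% interval 0.01 to 0.94, limma, adjusted p = 0.987), 0.30 with clodronate (95% interval -0.21 to 0.81) and 0.39 averaged (95% interval 0.04 to 0.73, limma, adjusted p = 0.600). Once the 2 mice high in skeletal muscle markers were left out it was -0.05 with clodronate and 0.21 averaged, and the averaged interval then included 0 (95% interval -0.10 to 0.52). The averaged interval also included 0 when any of certain single mice was left out. These were Control+PBS 4, Wheel+PBS 2 or 5, Control+Clodronate 2 or 3, and Wheel+Clodronate 2. The averaged difference without 1 mouse was 0.30 to 0.47.

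With PBS liposomes Acsl1 (0.30, 95% interval -0.09 to 0.68) and Dgat1 (0.25, 95% interval -0.10 to 0.61) were the next highest, and Lpl (-0.12), Cd36 (-0.08), Fabp4 (-0.04) and Gpihbp1 (0.01) lay near 0 with intervals that reach at least 0.39 to either side. With clodronate liposomes 9 of 10 values were lower in Wheel mice (median -0.28), beside 49.3% of all genes and a median of 0.0045 over all genes. Fabp5 (-0.51), Cd36 (-0.44) and Gpihbp1 (-0.39) were the lowest, and none passed. These clodronate values rest on 5 mice against 5, of which 3 Wheel+Clodronate mice were high in lymphocyte markers. Without the 5 mice high in those markers the values of Fabp4, Acsl1, Dgat1 and Pparg had the opposite sign. The interaction of activity with liposome passed for none of the 10 and for none of all genes (0% of those tested, limma, with 1147 at an unadjusted p under 0.05), and its lowest unadjusted p among the 10 was that of Acsl1, with a difference of -0.37 (95% interval -0.94 to 0.20).

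The rest of the pathway was read from lists of genes for each step, chosen by function. Over all genes tested, 57.4% were lower after clodronate averaged over activity, with a median of -0.04. That share belongs beside each count of lower genes in the lists below. In the clodronate comparison averaged over activity, 1 gene of these lists passed: Agpat3, an acyltransferase of the lysophosphatidic acid step, which was 44.9 to 93.9 CPM with a median of 60.5 CPM over the 12 PBS mice and 29.5 to 55.2 CPM with a median of 41.9 CPM over the 10 clodronate mice. Its change was -0.53 (SE 0.11, limma, adjusted p = 0.0492), the highest adjusted p of the 31 genes that passed. The change was negative in all alternatives run, but the call held in 5 of the 22 fits without 1 mouse (without Control+PBS 4 or 6, Wheel+PBS 2, Control+Clodronate 1 or Wheel+Clodronate 5) and in 4 of 12 other alternatives. It was lost without the mice high in lymphocyte markers (limma, adjusted p = 0.0999), without those high in skeletal muscle markers (0.143) and with the adipocyte covariate (0.236), and the range over all alternatives was 0.0140 to 0.236. The other triglyceride assembly genes, Agpat3 included, were 12 of 18 lower with a median of -0.16. Agpat2, the acyltransferase of that step that fat cells depend on, had a median of 374 CPM with PBS and 204 CPM with clodronate (-0.95, limma, adjusted p = 0.0836), and Fitm1, a lipid droplet protein of muscle, was at the floor in the median mouse of both (0.73, limma, adjusted p = 0.537).

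Among 7 genes that supply glycerol 3-phosphate, 4 were lower, and the widest values were those of Gpd1, which makes it from a glycolysis intermediate (-0.77, limma, adjusted p = 0.158), and Slc2a4, the insulin-responsive glucose transporter (-0.51, limma, adjusted p = 0.194). Among 8 other acyl-CoA synthetases and binding proteins tested, 5 were lower. Acss2, which makes acetyl-CoA from acetate, had a median of 122 CPM with PBS and 28.5 CPM with clodronate (-1.65, limma, adjusted p = 0.0527), and Acsbg1 was 0.69 (limma, adjusted p = 0.678). Of 10 genes that regulate the lipase 5 were lower, and Angptl8, a fat and liver hormone that acts on lipoprotein lipase activity, had a median of 4.17 CPM with PBS and 1.40 CPM with clodronate (-1.29, limma, adjusted p = 0.104), while Pcsk6 was -0.26 (limma, adjusted p = 0.695). Angptl8 was at the floor in the median Control+Clodronate mouse, so its level and change with clodronate are limited by the floor.

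Of 8 other fatty acid transport genes tested 4 were lower, with Fabp3, the binding protein of heart and skeletal muscle, at 1.05 (limma, adjusted p = 0.414) and Cav1, a caveolar protein abundant in fat cells and endothelium, at -0.49 (limma, adjusted p = 0.353). Fabp3 was at the floor in the median PBS mouse and reached 28.8 CPM in a clodronate mouse. Of 20 partners of Pparg 13 were lower with a median of -0.08, and the widest were Srebf1, a transcription factor of fatty acid synthesis (-0.48, limma, adjusted p = 0.344), and Klf5 (0.44, limma, adjusted p = 0.782). In the other 6 comparisons no gene of these lists passed.

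**Figure D4:**
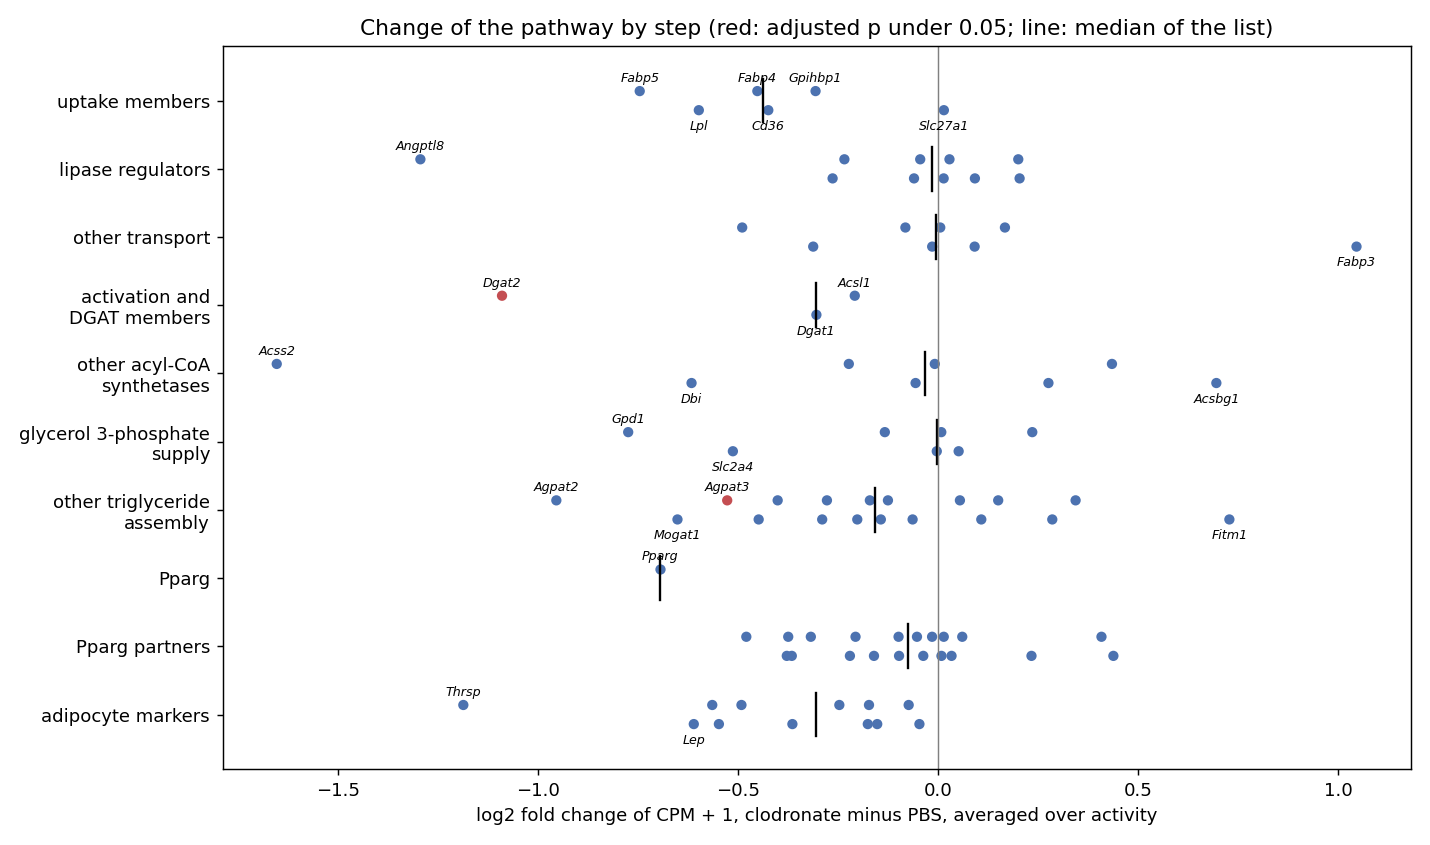
Log2 change of CPM + 1 for clodronate minus PBS averaged over activity, 1 point per gene, for the 10 genes and the lists of each step, with a line at each list's median and red for an adjusted p under 0.05. Dgat2 at -1.09 and Agpat3 at -0.53 are the red points, and the medians of the lists outside the 10 genes are all under 0, the lowest being -0.31 (adipocyte markers). The median over all genes tested was -0.042. The medians of lipase regulators, other transport, other acyl-CoA synthetases and glycerol 3-phosphate supply lie between that value and 0.

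The genes also varied together from mouse to mouse within groups. After the mean of each group was removed, 36 of the 45 pairs had a positive Pearson r over the 22 mice, the median r was 0.42, and 19 pairs passed an adjusted permutation p of 0.05 over the 45 pairs, by Pearson and as many by Spearman. Of these 19, 16 passed again without the 2 mice farthest on the first gene of the pair. The highest were Lpl with Cd36 (r = 0.88, rho = 0.87) and Cd36 with Fabp4 (r = 0.88), followed by Lpl with Gpihbp1 (r = 0.80, rho = 0.78), the enzyme and its endothelial anchor. Acsl1, Dgat1 and Dgat2 correlated among themselves (r = 0.64 to 0.76), of which Acsl1 with Dgat2 did not pass without the 2 farthest mice (r = 0.48, adjusted permutation p = 0.0791), and Acsl1 correlated with Slc27a1 (r = 0.71).

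Dgat2 and Pparg, the genes with the lowest unadjusted p after clodronate, had an r of -0.03 within groups (rho = 0.05, adjusted permutation p = 0.934). Dgat2 followed Dgat1 (r = 0.70, rho = 0.66, adjusted permutation p = 0.00100). Fabp5 had an r under 0 with 8 of the other 9 genes. Its r with Gpihbp1 was -0.58 (rho = -0.58, adjusted permutation p = 0.0116), which became -0.40 without the 2 farthest mice and then did not pass (adjusted permutation p = 0.159).

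**Figure D5:**
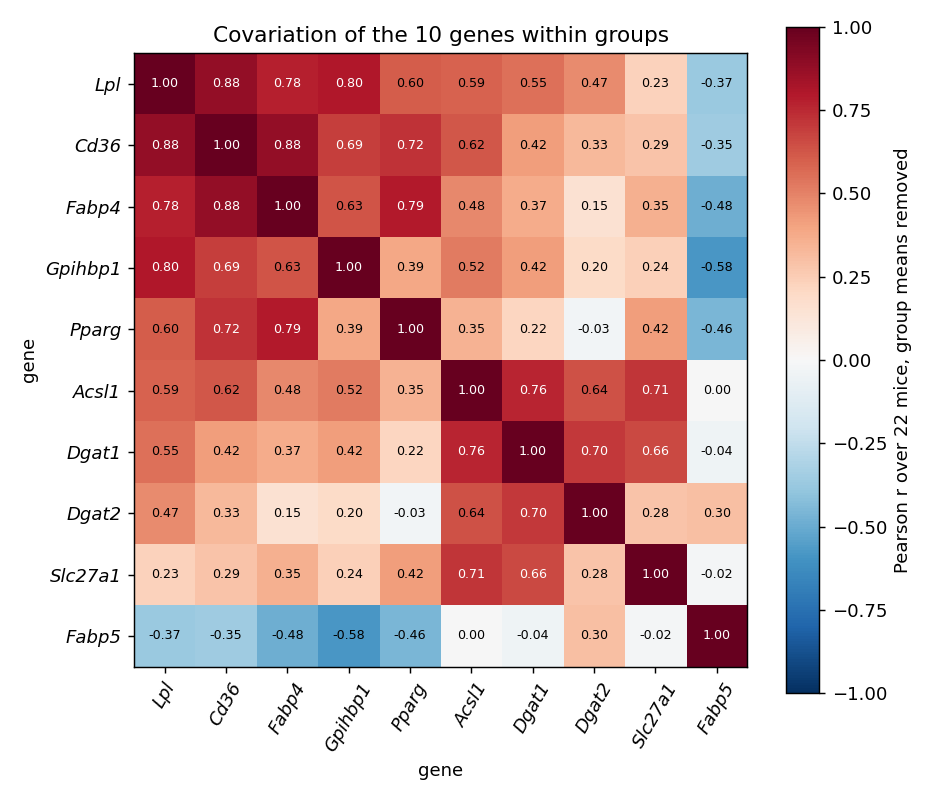
Pearson r between each pair of the 10 genes over 22 mice after group means of log2(CPM + 1) were removed, from blue (negative) to red (positive). The pairs among Lpl, Cd36, Fabp4 and Gpihbp1 run from 0.63 to 0.88, and 8 of the 9 pairs with Fabp5 are negative, down to -0.58.

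Each gene was then set against the mean log2 level of the 12 adipocyte markers in the same way, as 10 relations with 100000 permutations each. Lpl (r = 0.92, rho = 0.93), Cd36 (r = 0.88, rho = 0.89), Gpihbp1 (r = 0.83, rho = 0.81), Fabp4 (r = 0.73, rho = 0.71), Acsl1 (r = 0.72, rho = 0.65), Dgat1 (r = 0.67, rho = 0.56) and Pparg (r = 0.56, rho = 0.58) all had an adjusted permutation p of at most 0.00850 by Pearson. These 7 held without the 2 mice farthest on the marker level, Control+Clodronate 2 and 3, at r = 0.49 to 0.92 with an adjusted permutation p of at most 0.0406. Dgat2 (r = 0.47, rho = 0.51, adjusted permutation p = 0.0333) fell to r = 0.35 without those mice and then did not pass (adjusted permutation p = 0.168). The r of Dgat1 and of Acsl1 also fell without them, to 0.51 and 0.59, and still passed. Both relations were uneven between groups. The r of Acsl1 was 0.18 in Control+PBS, 0.39 in Wheel+PBS, 0.98 in Control+Clodronate and 0.81 in Wheel+Clodronate. For Dgat1 it was 0.51, 0.09, 0.94 and 0.58 in the same order. Within single groups Lpl had an r of 0.82 to 0.99 and Cd36 of 0.85 to 0.99. Differences in r between groups were not tested. Slc27a1 (r = 0.40, rho = 0.34, adjusted permutation p = 0.0692) did not pass, and Fabp5 was negative, with a Pearson value that did not pass (r = -0.42, adjusted permutation p = 0.0549) and a Spearman value that did (rho = -0.44, adjusted permutation p = 0.0450). Without the 2 farthest mice its r was -0.31 (adjusted permutation p = 0.197).

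The genes whose levels followed the mean of the 10 most closely over the 22 mice, groups included, were Chpt1 (r = 0.92), Nat8l (0.92), Echs1 (0.91), Ptger3 (0.91), Gstz1 (0.90), Plin1 (0.90), Rbp4 (0.90) and Pank3 (0.90), all points sharing libraries and depth. Plin1, the lipid droplet coat protein of fat cells, was the closest to both Lpl (0.95) and Cd36 (0.95). Dgat2 was followed most closely by 9630013D21Rik (0.94) and Pgd (0.93), an enzyme of the pentose phosphate pathway, and Fabp5 by Tlcd2 (0.78) and Tecr (0.78), an enzyme of fatty acid elongation. The closest pair was Zbtb20 and Slc48a1 for Gpihbp1 (0.91 for both), Acacb and Arxes2 for Slc27a1 (0.76 and 0.73), Hadh and Adcy6 for Fabp4 (0.88 for both), mt-Rnr2 and Adipor2 for Acsl1 (0.86 and 0.85), Cox6a1 and Slc25a10 for Dgat1 (0.84 for both), and Acat1 and Lgals12 for Pparg (0.86 for both). Abcd2 (0.92) and Aoc3 (0.93) came second for Lpl and for Cd36.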

How the data were processed

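The authors sequenced 3′ libraries (QuantSeq 3′ FWD) of 22 mice. The submitters' processing notes name STAR 2.5.3a and GRCm38, and the counter is not given in the sources used here. The deposited values are a signal per gene in CPM relative to all reads, unmapped and multimapping included, with values under 1 raised to 1. The 4 rows that name no gene held 35.4 to 42.6% of reads and were left out, and of 106 symbols listed more than once the highest row was kept. Groups came from the labels, and nothing states that mice were handled in batches.

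Depth was read from the CPM steps. The model was limma 3.58.1 in R 4.3.3 (empirical Bayes with a variance trend) on log2(CPM + 1), a scale that understates the change of low genes, for the 15138 genes that exceeded the floor in 5 or more mice, with Benjamini-Hochberg adjustment over all of them. On simulated data limma was checked first. Permutation tests with 100000 resamples were run in Python 3.11.15. Fewer resamples were used where the relations to the adipocyte markers were rerun with other scalings or without the lymphocyte-high mice. Positions came from GENCODE for GRCm38. The alternatives were other pseudocounts, filters, scalings and mice left out, and refits without mice high in skeletal muscle markers were added after the data were seen.

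The 10 genes, the pathway lists and the alternatives were chosen with earlier results of these data known, so patterns over them are descriptions. Named genes were the 10, then from each pathway list those past an adjusted p of 0.05 in any comparison plus the 2 with the largest change after clodronate, and the closest genes by correlation (8 for the mean of the 10 and 2 for each). The Dgat2 to Dgat1 ratio was outside this rule and has no test.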

Additional observations from a re-analysis of the deposited data

Results flagged for a closer look

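In Wheel+Clodronate, Slc27a1 was 203 CPM in replicate 2 and at most 123 CPM in the other 4 mice. The gap made up 0.712 of the range of the group, above the 95% limit of Dixon's test for 5 values. The gap test was run on 40 sets of values (10 genes in 4 groups), of which chance would flag about 2, and this was the 1 that it flagged. The same mouse held 12100 CPM of skeletal muscle markers, and the part of muscle in its Slc27a1 value was not tested.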

How the results depend on the processing

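The averaged Dgat2 change kept its direction under every alternative run and lost its call under 3 of them: without the 5 mice high in lymphocyte markers, without the 2 mice high in skeletal muscle markers, and with the adipocyte marker level as a covariate. Members past the threshold then went from 1 to 0 and all genes from 31 to 0. All genes went to 54 when genes needed a mean of 5 CPM, 12 with upper-quartile scaling, 16 with scaling to assigned reads, 20 with no variance trend, and 9 to 146 without 1 mouse. Those mice were Control+PBS 1 (14 genes), 3 (15) and 4 (70), Control+Clodronate 1 (146), 2 (12) and 3 (9), and Wheel+Clodronate 2 (19) and 3 (14). For clodronate in Wheel mice the count of 1 gene became 3 (pseudocount of 5), 4 (no filter), 0 (mean of 5 CPM), 3 (upper-quartile), 2 (assigned reads), 2 (no variance trend), 0 (only the groups compared), 14 (without the lymphocyte-high mice), 40 (without the muscle-high mice), 0 (adipocyte covariate) and 0 to 51 without 1 mouse (28 without Wheel+Clodronate 1, 51 without 2 and 0 without 5). For wheel minus control with clodronate the count of 1 became 3 (no filter), 0 (mean of 5 CPM), 0 (only the groups compared), 12 (without the lymphocyte-high mice), 6 (without the muscle-high mice) and 0 to 236 without 1 mouse (0 without Control+Clodronate 1, 2, 3 or 4 or Wheel+Clodronate 5, 118 without Wheel+Clodronate 1 and 236 without Wheel+Clodronate 2). With no filter the interaction and the averaged wheel comparison each had 2 genes. In Control mice the clodronate count was 0 to 38 genes and 0 to 1 of the 10 without 1 mouse, where leaving out Control+Clodronate 1 gave 38 and made the Dgat2 change -1.32 (limma, adjusted p = 0.0193), and Control+PBS 5 or 6 gave 1. The cause of these shifts was not tested.

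The replicate number was also fitted as a replicate block. It marks different mice. Mice sharing a replicate number had a mean r of -0.08 to 0.18 between groups, with negative pairs in each comparison. Single pairs ran from -0.39 to 0.52. Pairs of mice with unlike numbers were not computed, so whether mice of the same number deviate together was not tested. The mice were also numbered through the series, and a number is missing within each clodronate group. The last replicate of these groups was therefore matched by replicate number and not by the order of mouse numbers. The block gave 11 genes for clodronate averaged, 0 for clodronate in Wheel mice and 0 for wheel minus control with clodronate, and the averaged Dgat2 change was -1.08 (limma, adjusted p = 0.0465).

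Of 880 member values under the alternatives, 38 had the opposite sign, 3 were no longer past the threshold (all Dgat2) and 839 kept sign and side. None of the values that turned was past the threshold. Upper-quartile scaling turned wheel minus control with PBS (Cd36 0.024, Fabp4 0.057), clodronate in Control mice (Gpihbp1 0.0077, Acsl1 0.093) and the interaction (Fabp4 -0.11). Scaling to assigned reads turned wheel minus control with clodronate (Fabp4 0.037, Acsl1 0.0021), clodronate in Control mice (Acsl1 0.0037) and wheel averaged (Fabp4 0.013). Leaving out the 5 lymphocyte-high mice turned wheel minus control with PBS (Gpihbp1 -0.0016) and with clodronate (Fabp4 0.22, Acsl1 0.13, Dgat1 0.018, Pparg 0.23), clodronate in Wheel mice (Slc27a1 0.23), the interaction (Lpl 0.087, Slc27a1 0.047, Pparg 0.49) and wheel averaged (Fabp4 0.10). Leaving out the 2 muscle-high mice turned wheel minus control with clodronate (Slc27a1 -0.054), clodronate in Control mice (Acsl1 0.14, Dgat1 0.025) and the interaction (Fabp4 -0.20). The adipocyte covariate turned wheel minus control with clodronate (Fabp4 0.18, Acsl1 0.079, Dgat1 0.067), clodronate in Control mice (Gpihbp1 0.18, Cd36 0.020, Acsl1 0.13, Dgat1 0.0038), in Wheel mice (Gpihbp1 0.041, Slc27a1 0.15) and averaged (Gpihbp1 0.11, Acsl1 0.017), the interaction (Lpl 0.045, Dgat2 0.081, Pparg 0.075) and wheel averaged (Fabp4 0.075). Without 1 mouse, 67 of 1100 values turned, with ranges for clodronate in Control mice (Acsl1 -0.16 to 0.14, Dgat1 -0.32 to 0.025, Gpihbp1 -0.31 to 0.13, Slc27a1 -0.062 to 0.28), in Wheel mice (Slc27a1 -0.25 to 0.039) and averaged (Slc27a1 -0.073 to 0.10), for wheel minus control with clodronate (Acsl1 -0.23 to 0.069, Dgat1 -0.24 to 0.10, Dgat2 -0.44 to 0.017, Fabp4 -0.21 to 0.15), with PBS (Cd36 -0.20 to 0.034, Fabp4 -0.20 to 0.032, Gpihbp1 -0.14 to 0.10, Lpl -0.24 to 0.026) and averaged (Fabp4 -0.12 to 0.052), and for the interaction (Dgat2 -0.26 to 0.20, Fabp4 -0.16 to 0.19, Fabp5 -0.49 to 0.036, Pparg -0.31 to 0.15).

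Upper-quartile scaling moved the median over all genes of the interaction from 0.09 to -0.01, and it changed the genes at an unadjusted p under 0.05 for clodronate averaged from 1256 lower and 323 higher to 785 lower and 559 higher. The Dgat2 to Dgat1 log2 ratio stayed at -0.87 to -0.73 without 1 mouse. With upper-quartile scaling the relation of Slc27a1 to the adipocyte markers passed (r = 0.49, adjusted permutation p = 0.0229). The planned count model was not run, since the reads hidden under the floor cannot be recovered, and a fit of only the groups compared does not exist for the interaction or the averages. Leaving out the 5 lymphocyte-high mice leaves 2 Wheel+Clodronate mice.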
